A study of Sus scrofa with 6 samples.

Results

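The genes described here encode components of complement itself, as opposed to its regulators and receptors, in neonatal pig Sertoli cells (NPSC). The 10 symbols C1R, C1S, C2, C3, CFB, CFD, C5, C6, C7 and C8A were looked up among the 25149 genes of the count files, C6 by its Ensembl identifier and the others through a table that pairs pig Ensembl identifiers with symbols. The lookup found 8 of them. C1R and C1S could not be paired with an identifier of the files and were not analysed here. The study had chosen C6 for its role in complement among the genes it called changed in these same libraries, so its change below is not independent evidence. The study also measured its genes of interest by qPCR. C6 and the regulator SUSD4 were not among those it named as significantly changed by qPCR.

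Complement is a cascade of plasma proteins in which proteases, activated in turn, cleave the central components C3, C4 and C5. The classical and lectin pathways use C2 and C4 to build an enzyme that cleaves C3, and the alternative pathway builds its own from factor B (CFB), which is cut by factor D (CFD), on C3 already cleaved. Cleavage of C5 then starts the terminal pathway, in which C5b, C6, C7, C8 and C9 assemble into the membrane attack complex. The liver is the main source of most of these proteins, and many other cells transcribe some of them.

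NPSC were isolated by collagenase and trypsin digestion from the testes of neonatal, wild-type Duroc-Landrace pigs and cultured in DMEM with 10% fetal bovine serum. Complement NPSC (3 plates) received pooled human AB serum with its complement preserved, in equal volume with the culture medium, for 90 min, and in baseline NPSC (3 plates) DMEM took the place of the serum. Each plate gave 1 RNA library, and which litters went to which plate is not stated, so the p-values measure only the spread between plates, which may be technical. All libraries, controls included, carried fetal bovine serum, and the human serum brought many proteins besides complement, which cannot be told apart from complement in this design.

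The libraries held 3641518 to 8371923 counts on genes, and every complement NPSC library held fewer than any baseline NPSC library. A level is given as CPM, the count scaled to a common library size after TMM normalization, and where genes are compared, as CPM per kilobase of summed exon length. As a yardstick for counts that a gene not used by these cells can hold, each level was set against the counts per exon length of 48 olfactory receptor genes, which encode odorant receptors of the nasal epithelium. The expected background of a gene is this density times its exon length. The density was 2.12, 1.33 and 1.305 CPM per kilobase in baseline NPSC against 3.51, 3.85 and 1.68 in complement NPSC, so it was highest in complement replicates 1 and 2. A wider yardstick was the pooled density on 22 genes of distant tissues (rhodopsin, thyroglobulin and the like), which lay at 2.81 times that of the olfactory receptor genes in baseline NPSC. Single genes of that list ranged from 0.180 to 7.58 times the olfactory receptor density, so neither yardstick fixes a limit for a single gene.

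The labelled cell type was represented by its markers. INHA, the inhibin alpha subunit, led the Sertoli cell markers at 324 ± 66.2 CPM per kilobase (SD, n = 3) in baseline NPSC, and all 13 matched markers were counted. AMH could not be matched. Markers of other testis cells were also high: INSL3 of Leydig cells at 1043 ± 111 CPM per kilobase (SD, n = 3), ACTA2 of peritubular myoid cells at 990 ± 288 (SD, n = 3) and COL3A1 of stromal fibroblasts at 449 ± 117 (SD, n = 3). KIT of germ cells was at 64.5 ± 16.9, PECAM1 of endothelium at 46.1 ± 12.2 and PLIN1 of adipocytes at 5.52 ± 1.91 CPM per kilobase (SD, n = 3 for each). KIT stood above the other germ cell markers, of which UCHL1 averaged 30.5 and the rest 3.29 to 8.42 CPM per kilobase in baseline NPSC. The summed germ cell markers (283 to 418 against 240 to 366 CPM in complement NPSC) and myoid markers (2709 to 4114 against 2148 to 4046 CPM) overlapped between groups. So did the hepatocyte markers (180 to 209 against 153 to 242 CPM), a sum led by APOA1, which was lower in complement NPSC (LFC −0.78), while the other 11 of the 12 tested hepatocyte markers had a positive LFC. In every marker list 0 genes were called by edgeR or DESeq2. At an unadjusted p under 0.05 the Sertoli list, the longest with 13 tested genes, had the most, 3 higher and 6 lower in complement NPSC. Of all tested genes, 10.9% were higher and 4.28% lower at this cut. Among matched markers, CYP11A1 of Leydig cells and MYH11 of myoid cells had 0 counts in all 6 libraries. The libraries are bulk RNA, so a level cannot be assigned to Sertoli cells alone, and fewer cells of a type cannot be told apart from less RNA per cell.

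In baseline NPSC the components fell into 3 tiers. C3 stood far above the rest, CFD, CFB, C2 and C7 were counted at a few times the olfactory receptor density, and C8A, C5 and C6 lay near it. C3 averaged 66.9 ± 15.4 CPM per kilobase (SD, n = 3), above 94.9% of all genes with at least 1 count, and CFD followed at 14.8 ± 5.68 (SD, n = 3). CFB averaged 9.19 ± 2.18, C2 7.31 ± 2.91, C7 5.36 ± 1.80, C8A 2.19 ± 0.468, C5 1.48 ± 0.0795 and C6 1.22 ± 0.309 CPM per kilobase (SD, n = 3 for each). Along this order the ranges of neighbours did not overlap between C3 and CFD, between C7 and C8A, and between C8A and C5. The ranges of CFD and CFB overlapped, as did those of CFB and C2, of C2 and C7, and of C5 and C6. C3 supplied 69.3% to 75.5% of the counts of the 8 genes in baseline NPSC and 43.3% to 62.9% in complement NPSC.

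**Figure D1:**
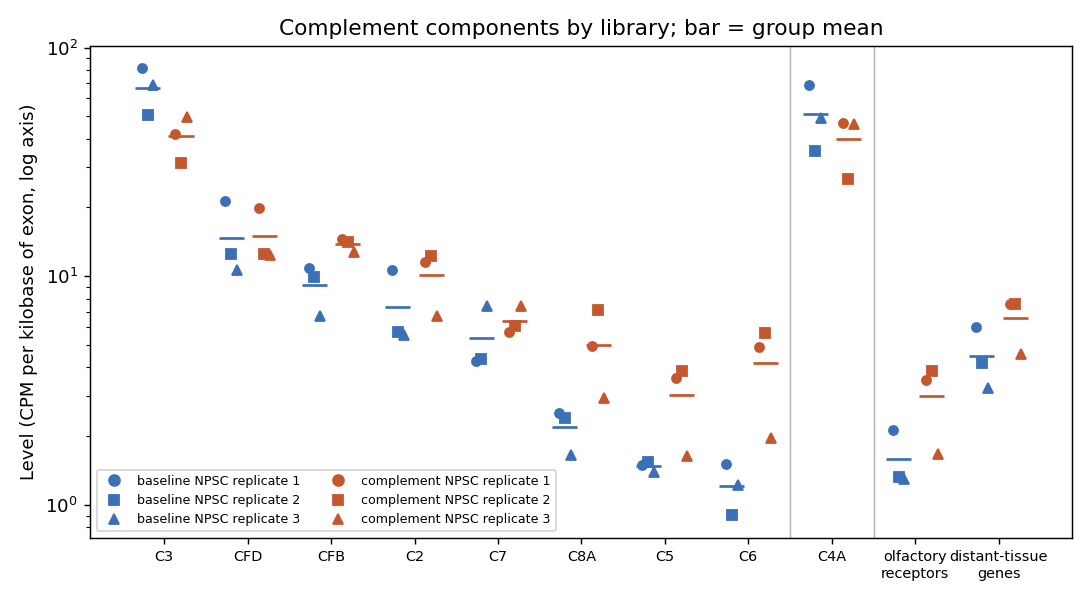
Level of each component in each library, in CPM per kilobase of exon on a log axis, with C4A and the 2 background gene sets to the right. Blue is baseline NPSC, orange is complement NPSC, symbols are replicates and bars are group means. C3 sits at 31.2 to 81.2 and C6 at 0.902 to 5.65, close to the olfactory receptor genes.

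By the rule used here, a gene was above background where the lower bound of its 95% interval, from counting error only, exceeded 2 times the olfactory receptor density over the 3 baseline libraries. The rule was met by 5 of the 8 genes, C3, CFD, CFB, C2 and C7, and a ratio over 2 was also met by 71.1% of all counted genes. With the genes of distant tissues as the yardstick, 2 of the 8 passed, C3 and CFD. The ratios to olfactory receptor density were 42.5 (95% interval 40.2 to 45.1) for C3, 9.29 (8.14 to 10.6) for CFD, 5.75 (5.18 to 6.38) for CFB, 4.61 (4.12 to 5.14) for C2 and 3.45 (3.09 to 3.84) for C7. Of the 22 distant-tissue genes, 0 lay above C3 or CFD in counts per exon length, 2 lay above CFB, 4 above C2 and 8 above C7. The ratios were 1.37 (1.10 to 1.69) for C8A, 0.932 (0.788 to 1.10) for C5 and 0.774 (0.595 to 0.990) for C6, so C8A lay above the olfactory receptor density by counting error and C5 did not. Of the 22 distant-tissue genes, 15 lay above C8A, 16 above C5 and 17 above C6, and a level of these 3 genes beyond that of genes of other tissues was not detectable.

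**Figure D2:**
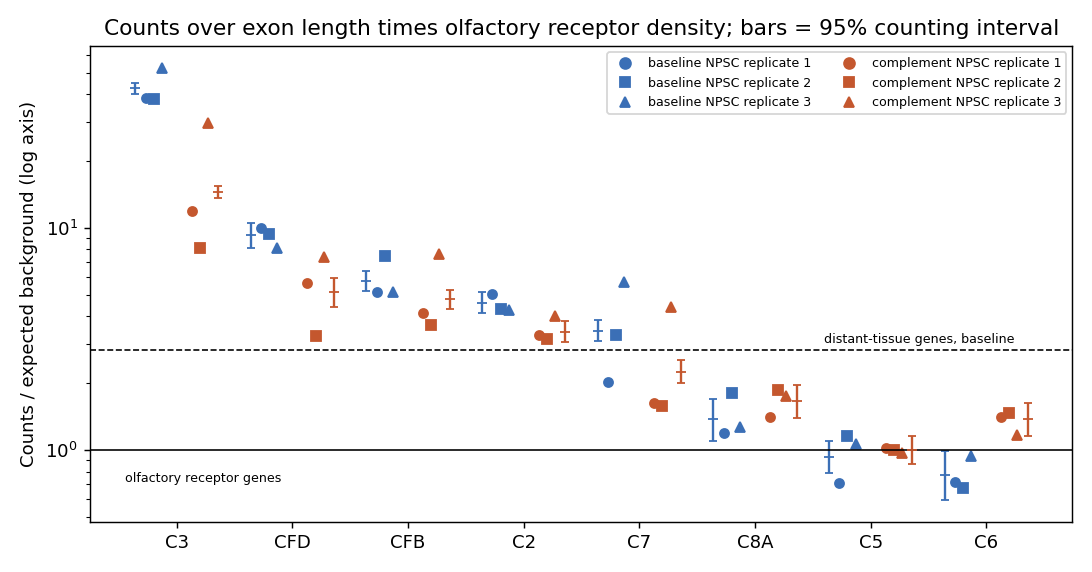
Counts of each component divided by the counts expected from its exon length and the olfactory receptor density of the same library, on a log axis. Points are libraries and bars are pooled ratios with 95% counting intervals. The solid line marks the olfactory receptor genes and the dashed line the pooled distant-tissue genes, at 2.81. C5 and C6 straddle the solid line while C3 lies at 8.09 to 52.7.

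The study's single contrast asks how transcript levels differed after serum exposure. In edgeR's quasi-likelihood test with Benjamini-Hochberg adjustment over 17512 tested genes, 0 of the 8 components had an adjusted p under 0.05, against 0.103% of all tested genes (0.0914% higher and 0.0114% lower). At an unadjusted p under 0.05 there were 5 of the 8 (62.5%), against 15.2% of all tested genes (10.9% higher and 4.28% lower): C6, C5, C8A and CFB at higher values and C3 at a lower value in complement NPSC. The groups did not overlap for the same 5 genes, against 17.1% of all tested genes (8.95% higher and 8.14% lower). The DESeq2 Wald test, which the study used, called 1 component, C6, and 0.394% of the genes it adjusted. Calls of components described below without complement replicate 3 stand beside 10.1% of all genes called in that fit, and those without baseline replicate 1 beside 1.80%. A fit with the replicate number as a block called 5 components and 14.4% of all genes. The median log2 fold change (LFC) of the 8 was 0.53, against 0.02 over all tested genes. Upper-quartile normalization moved the median of all genes up by 0.11.

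Among all tested genes, the sign of the LFC went with the height over background. Of 3350 tested genes under 2 times the olfactory receptor density over all 6 libraries, 84.9% had a positive LFC, with a median of 0.59. Between 2 and 10 times the median LFC was 0.09, and for the 4525 genes at 10 times or more it was −0.25. The olfactory receptor genes that were tested, 30 of 48, all had a positive LFC, with a median of 0.77. The expression filter can bear on these values, since a gene near background may pass it through the group of higher background alone. Without the filter, 47 olfactory receptor genes were fitted, all positive with a median of 0.97, and of 6857 genes under 2 times the density 79.2% were positive, with a median of 0.63. Both medians were thus higher without the filter, while the positive share under 2 times the density was lower. C5, C6 and C8A belong to the lowest class, CFB, CFD, C2 and C7 to the middle one and C3 to the highest.

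C3, the central component that every pathway cleaves, is on chromosome 2 from 72761363 to 72787995 in the files' unnamed build, plus strand, with 3718 bp of summed exon (ENSSSCG00000013551). It had 302, 188 and 256 CPM in baseline NPSC and 156, 116 and 184 CPM in complement NPSC. Each complement NPSC value was below each baseline NPSC value, and baseline replicate 2 and complement replicate 3 lay close together. By library total in place of TMM, the groups overlapped. The LFC was −0.71 (SE 0.25, adjusted p = 0.272, edgeR), where the median of its class was −0.25. The sign was negative in every alternative run, at −0.90 to −0.46. C3 was called without complement replicate 3 (LFC −0.90, adjusted p = 0.0411, edgeR).

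The summed levels of Sertoli and Leydig cell markers were also lower in complement NPSC. The summed level of the 13 Sertoli cell markers was 1508 to 1835 CPM in baseline NPSC and 1045 to 1196 CPM in complement NPSC, and that of the 5 Leydig cell markers was 971 to 1179 and 743 to 797 CPM. Neither sum overlapped between groups. The leading macrophage marker TYROBP was at 36.3 ± 15.5 CPM per kilobase in baseline NPSC and 17.5 ± 1.63 in complement NPSC (SD, n = 3 for each), and of the 10 macrophage markers 6 had a negative and 4 a positive LFC. The 10 macrophage markers summed to 150 to 211 and 115 to 193 CPM and the 6 stromal fibroblast markers to 2098 to 3429 and 1529 to 4023 CPM, both overlapping. The part of these cell types in the level of C3 was not tested. The tested genes with the profile most like that of C3 over the 6 libraries included SCARB2, NTN4, TPP1 and CYBC1, at Pearson's r of 0.987 to 0.994 on log2 CPM. These correlations are a description over libraries that share depth and background.

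The alternative pathway proteases stood between. CFB, whose product carries the protease of the alternative C3 convertase, is on chromosome 7 from 27771732 to 27777630, minus strand, with 2504 bp of exon (ENSSSCG00000024914). It had 27.3, 24.9 and 16.9 CPM in baseline NPSC, from 188, 161 and 128 counts, and 36.5, 35.3 and 32.1 CPM in complement NPSC, from 164, 148 and 185 counts. All 3 complement NPSC libraries lay above the baseline NPSC libraries, and they lay closer to each other. The LFC was 0.59 (SE 0.22, adjusted p = 0.282, edgeR), where the median of its class was 0.09. It was positive in every alternative run, at 0.39 to 1.02.

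The expected background made up 19.2% of the counts of CFB. With it subtracted, the level was 7.61 ± 1.88 CPM per kilobase (SD, n = 3) in baseline NPSC and 10.8 ± 0.501 (SD, n = 3) in complement NPSC, and the groups still did not overlap. The subtracted LFC was 0.79 (SE 0.26, adjusted p = 0.469, edgeR). With the olfactory receptor density as a covariate the LFC was 0.40 (SE 0.23, adjusted p = 0.893, edgeR).

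CFD, factor D or adipsin, the protease that cleaves factor B, is on chromosome 2 from 77485872 to 77487847, plus strand, with 894 bp of exon (ENSSSCG00000013418). It had 19.0, 11.2 and 9.49 CPM in baseline NPSC and 17.8, 11.2 and 11.1 CPM in complement NPSC. Replicate 1 was the highest library of both groups and the groups overlapped. The LFC was 0.02 (SE 0.32, adjusted p = 0.982, edgeR), and its sign changed between alternatives, from −0.42 to 0.36. CFD is also a product of adipocytes, and the 3 matched adipocyte markers, PLIN1, CIDEC and PLIN4, summed to 17.3 to 34.5 CPM in baseline NPSC and 37.7 to 41.0 CPM in complement NPSC. These markers lay near background, at 3.44, 2.94 and 1.61 times the olfactory receptor density in baseline NPSC. The pooled distant-tissue genes had 2.81 times. The olfactory receptor density was itself 1.90 times as high in complement NPSC. The part of adipocytes in the level of CFD was not tested.

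C2, the protease of the classical and lectin C3 convertase, lies next to CFB on chromosome 7, from 27778160 to 27819252, minus strand, 529 bp beyond it, with 2732 bp of exon (ENSSSCG00000001422). The files list 0 bp of exon shared by C2 with CFB or with ZBTB12, a gene on the other strand inside the span of C2. C2 had 29.1, 15.6 and 15.2 CPM in baseline NPSC and 31.6, 33.4 and 18.4 CPM in complement NPSC. The groups overlapped, with baseline replicate 1 among the complement NPSC values. The LFC was 0.47 (SE 0.29, adjusted p = 0.416, edgeR), and it was −0.24 (SE 0.23) with the olfactory receptor density as a covariate and −0.14 (SE 0.42) without complement replicates 1 and 2. It was 0.83 without baseline replicate 1, and 0.31, 0.29 and 0.305 without baseline replicate 2, baseline replicate 3 and complement replicate 2. Background of the expected size would supply 25.4% of all C2 counts.

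**Figure D3:**
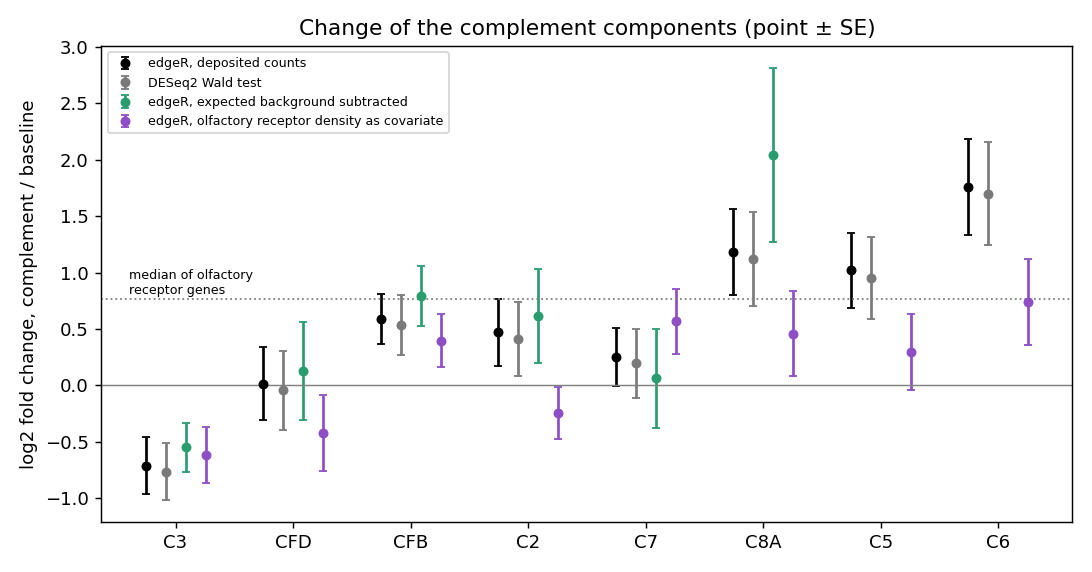
Log2 fold change of each component in complement NPSC over baseline NPSC, with its SE, in edgeR on the deposited counts, in the DESeq2 Wald test, in edgeR after subtraction of the expected background and in edgeR with the olfactory receptor density as a covariate. C5 and C6 have no subtracted value because they no longer passed the expression filter. The dotted line is the median of the tested olfactory receptor genes, 0.77, and C3 lies below 0 in all 4 fits.

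Of the terminal pathway, C7, which lets the growing complex insert into the membrane, had the highest mean level per kilobase in baseline NPSC. It is on chromosome 16 from 27054738 to 27112719, minus strand, with 3720 bp of exon (ENSSSCG00000016859), and had 15.9, 16.2 and 27.7 CPM in baseline NPSC and 21.1, 22.7 and 27.6 CPM in complement NPSC. Replicate 3 was the highest library in both groups, with 5.70 and 4.42 times the expected background, where the other libraries had 1.58 to 3.28 times. The LFC was 0.25 (SE 0.26, adjusted p = 0.587, edgeR), and it was 0.099 without baseline replicate 1, 0.11 without baseline replicate 2, 0.10 without complement replicate 3 and 0.55 without baseline replicate 3. It was 0.06 after subtraction of the expected background and 0.57 with the covariate. The summed stromal fibroblast markers were also highest in these 2 libraries, at 3429 and 4023 CPM against 1529 to 2601 CPM in the others, and the endothelial markers were as well, at 823 and 987 CPM against 418 to 710. The same held for the peritubular myoid markers, at 4114 and 4046 CPM against 2148 to 2912. Their part in the level of C7 was not tested.

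C6, which joins C5b at the start of the attack complex, is on chromosome 16 from 27210756 to 27269057, minus strand, with 2575 bp of exon (ENSSSCG00000016861). It had 27, 15 and 24 counts in baseline NPSC, where 37.7, 22.1 and 25.5 were expected from background, and 57, 61 and 29 counts in complement NPSC, where 40.6, 41.6 and 24.9 were expected. The baseline counts were thus 0.678 to 0.941 times the expectation and the complement counts 1.17 to 1.47 times, and the groups did not overlap in this ratio. In CPM the complement NPSC mean was 3.43 times the baseline NPSC mean, while the olfactory receptor density was 1.90 times as high. The pooled ratio in complement NPSC was 1.37 (95% interval 1.15 to 1.62, counting error only), which lies under the 2.22 of the distant-tissue genes in those libraries.

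The LFC of C6 was 1.76 (SE 0.43, adjusted p = 0.235, edgeR), the largest of the 8, where the median of its class was 0.59. By DESeq2 the adjusted p was 0.0491. In edgeR C6 was called without baseline replicate 1 (LFC 1.93, adjusted p = 0.0447) or without complement replicate 3 (LFC 2.08, adjusted p = 0.0382), and without complement replicates 1 and 2 its LFC was 0.65 (SE 0.54). With the olfactory receptor density as a covariate it was 0.74 (SE 0.38, adjusted p = 0.866, edgeR). The 5 tested genes most like C6 over the 6 libraries were PVALB, SLC28A2, ABCC8, SORCS3 and KPNA7, at Pearson's r of 0.991 to 0.995, and the expected background was 23.2% to 74.1% of their counts.

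C5, whose cleavage releases the chemoattractant C5a, is on chromosome 1 from 293077418 to 293163333, minus strand, with 5213 bp of exon, the longest of the 8 (ENSSSCG00000005512). It had 54, 52 and 55 counts in baseline NPSC against 84, 84 and 49 in complement NPSC, which were 0.708 to 1.16 and 0.973 to 1.02 times the expected background. The expected background thus came to 103% of its counts over the 6 libraries. In CPM the values were 7.83, 8.05 and 7.25 against 18.7, 20.0 and 8.51, without overlap, and the LFC was 1.02 (SE 0.33, adjusted p = 0.267, edgeR). With the olfactory receptor density as a covariate the LFC was 0.30 (SE 0.33), and C5 was called without complement replicate 3 (adjusted p = 0.0382, edgeR).

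C8A, the alpha chain of C8, is on chromosome 6 from 143217660 to 143266610, minus strand, with 2068 bp of exon (ENSSSCG00000003835). It had 36, 32 and 26 counts in baseline NPSC against 46, 62 and 35 in complement NPSC. These were 1.19 to 1.80 and 1.41 to 1.86 times the expected background, overlapping between groups, whereas the CPM values (3.43 to 5.22 and 6.08 to 14.8) did not overlap. The LFC was 1.18 (SE 0.38, adjusted p = 0.267, edgeR), 0.46 (SE 0.38) with the olfactory receptor density as a covariate and 2.04 (SE 0.77, adjusted p = 0.484, edgeR) after subtraction of the expected background. The subtracted level was 0.607 ± 0.397 CPM per kilobase (SD, n = 3) in baseline NPSC and 2.00 ± 1.13 (SD, n = 3) in complement NPSC. C8A was called without complement replicate 3 (adjusted p = 0.0385, edgeR).

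A ratio of counts between genes of the same library does not depend on the library's scaling. The 10 ratios among the 5 components above background were compared between groups after the levels had been seen. C3 counts were 11.1, 7.55 and 15.2 times those of CFB in baseline NPSC and 4.27, 3.28 and 5.74 times in complement NPSC, so the groups did not overlap. As C3 was lower and CFB higher without overlap in CPM, this separation follows from their levels, and it is given as a description with no test. The mean log2 ratio was 3.44 in baseline NPSC and 2.11 in complement NPSC, and the groups also did not overlap after subtraction of the expected background. The counts of C3 relative to C2 and to C7, and of CFD relative to C2, were lower in complement NPSC without overlap. After subtraction the ratios of C3 to C2 (12.6, 15.3 and 21.7 against 6.48, 4.44 and 12.9) and of C3 to C7 (36.5, 16.2 and 11.0 against 17.6, 12.2 and 8.33) overlapped between groups. The ratio of C3 to CFD overlapped with and without subtraction.

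**Figure D4:**
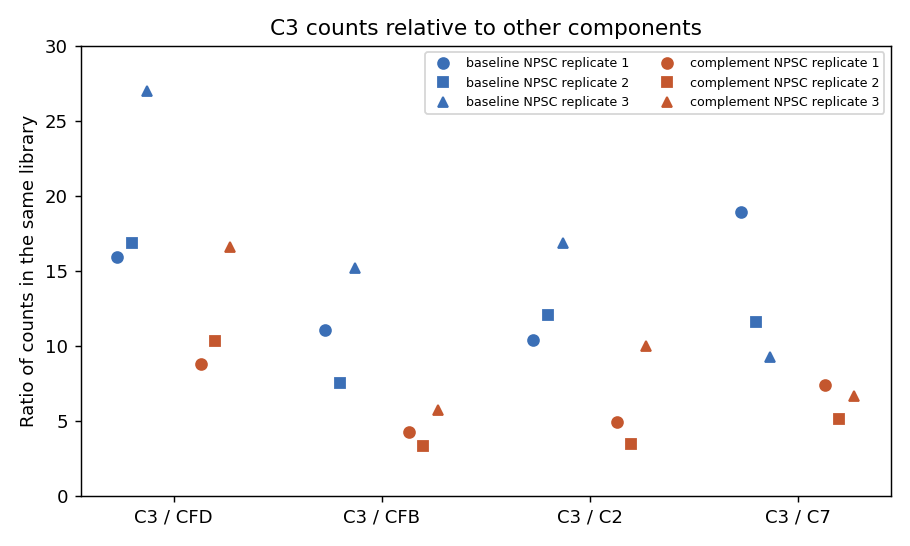
Counts of C3 divided by counts of CFD, CFB, C2 and C7 in the same library, on a linear axis from 0. For CFB the baseline NPSC libraries lie at 7.55 to 15.2 and the complement NPSC libraries at 3.28 to 5.74. In these unsubtracted counts the groups overlap only for CFD, where complement replicate 3 reaches 16.6. After subtraction of the expected background, which is not drawn, they overlap for C2 and C7 as well.

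The other complement genes were counted from 3 lists. Of 18 further components, 12 were matched and tested, and 0 had an adjusted p under 0.05 in edgeR's test. At an unadjusted p under 0.05 there was 1 (COLEC11), beside 15.2% of all tested genes, and DESeq2 called 0 of the 12. Their median LFC was 0.51. C4A, the partner of C2 in the classical convertase, was the highest at 51.0 ± 16.6 CPM per kilobase (SD, n = 3) in baseline NPSC and 39.98 ± 11.5 (SD, n = 3) in complement NPSC, below only C3 among the matched components on this scale, with an LFC of −0.35 (SE 0.29, adjusted p = 0.511, edgeR). MASP2, a lectin pathway protease, had an LFC of −0.32 and MASP1 of 0.45, with adjusted p = 0.495 and 0.442 by edgeR. The remaining terminal genes C8B, C8G and C9 had 1.81, 2.71 and 3.05 times the olfactory receptor density in baseline NPSC, where C7 had 3.45 times, its highest value being in replicate 3. In complement NPSC C8G (2.64 times) and C9 (2.38 times) lay above C7 (2.26 times).

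Of 17 regulators, 10 were matched and 9 tested, with 0 called in edgeR's test, 2 of the 9 at an unadjusted p under 0.05 (SUSD4 and CFI, beside 15.2% of all tested genes) and 2 called by DESeq2 (SUSD4 higher and CLU lower, beside 0.394% of all genes). CLU, clusterin, an inhibitor of the terminal complex, was at 1519 ± 393 CPM per kilobase (SD, n = 3) in baseline NPSC and 852 ± 126 (SD, n = 3) in complement NPSC, with an LFC of −0.83 (SE 0.40, adjusted p = 0.331, edgeR; adjusted p = 0.0491, DESeq2). SERPING1, the inhibitor of the C1 proteases, had an LFC of −0.28 (SE 0.24, adjusted p = 0.536, edgeR). SUSD4, an inhibitor of the C3 convertases that the study chose in the same way, had an LFC of 1.27 (SE 0.29, adjusted p = 0.191, edgeR). It was called without baseline replicate 1 (adjusted p = 0.0173, edgeR), beside 1.80% of all genes in that fit. It was also called without complement replicate 3 (adjusted p = 0.0382, edgeR), beside 10.1% of all genes. Of 12 receptors, 5 were matched and 4 tested, with 0 called by either tool. Of the 4, 1 had an unadjusted p under 0.05 (ITGAM), beside 15.2% of all tested genes. The highest receptor genes were CD93 with an LFC of −0.27, ITGAM with 0.56 and ITGB2 with −0.39. C3AR1, the C3a receptor, had 0 counts in all 6 libraries.

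**Figure D5:**
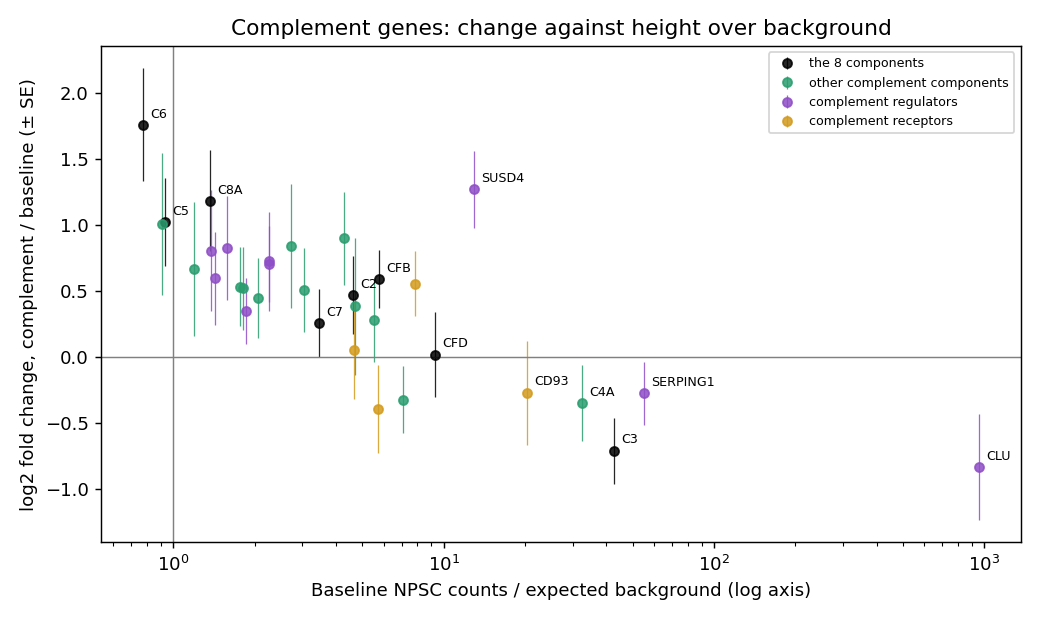
Log2 fold change with its SE against the ratio of baseline NPSC counts to expected background (log axis) for the 33 tested complement genes, in 4 colours for the 8 components, other components, regulators and receptors. Both axes use the baseline counts, so a low baseline value moves a gene left and up. C6 and C5 lie at or below a ratio of 1 with positive values, and C3, C4A and CLU lie to the right below 0.

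Split by their ratio over all 6 libraries, all 12 complement genes under 2 times the olfactory receptor density had a positive LFC, against 84.9% of all tested genes in that class. Of the 15 genes between 2 and 10 times, 13 were positive, the exceptions being MASP2 and ITGB2, against 57.5%. Of the 6 genes at 10 times or more, C3, C4A, CD93, CLU and SERPING1 were negative and SUSD4 was positive, where 14.1% of all tested genes in that class were positive.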

How the data were processed

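Raw counts per Ensembl pig gene from bulk RNA sequencing of 3 baseline NPSC and 3 complement NPSC libraries were used as the authors deposited them, without normalization, together with the summed exon length. The submitters' processing notes name Trimmomatic 0.36, STAR 2.5.2b and featureCounts of Subread 1.5.2; the genome build and strand setting are not given in the sources used here. Identifiers were paired with symbols for 11804 of 25149 genes. Library totals ranged from 3641518 to 8371923.

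Counts were tested with edgeR 4.0.16 in R 4.3.3 (filterByExpr, TMM, quasi-likelihood F-test, Benjamini-Hochberg adjustment over 17512 genes, adjusted p under 0.05). The SE is the size of the LFC over the square root of F. Background ratios carry exact binomial 95% intervals, which cover counting error only. The profile comparison used log2 CPM with a prior count of 2. Ratios between genes are given without a test. The scripts were tested on simulated counts.

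Alternatives were DESeq2 1.42.0, other normalizations and filters, a replicate block, each library left out, the fold threshold, subtraction of background and a background covariate. Members, lists and background sets were chosen with earlier results of these data known. Named genes were all matched members, the 3 genes of highest mean CPM and any gene called by the main edgeR test (there were 0) of each other complement list, the 5 genes most like C6 and C3 in profile (1 of them is not reported here), and the leading marker of each cell type per kilobase. Genes outside this rule (COLEC10, COLEC11, FCN2, CFI, C8B, C8G, C9, C3AR1, further markers) were named after their values were seen.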

Additional observations from a re-analysis of the deposited data

How the results depend on the processing

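Of the 8 components, 0 were called in edgeR's test, 1 (C6) by the DESeq2 Wald test and 5 (C3, CFB, C5, C6, C8A) with a replicate block, against 18, 63 and 2515 of all genes (0.103%, 0.394% and 14.4%). Leaving out each library in turn gave 0 to 4 components and 9 to 1855 of all genes. The 4 (C3, C5, C6, C8A) came without complement replicate 3, when 10.1% of all genes were called, and 1 (C6) without baseline replicate 1, when 327 genes (1.80%) were. All genes called numbered 31 without a filter, 31 after subtraction of the expected background, 63 with the background covariate and 11 after subtraction of the distant-tissue density, and 9 without baseline replicate 2. The cause of these moves was not tested. Further components called were 2 with the block (COLEC11, FCN2) and 0 to 1 with a library left out (COLEC10 without complement replicate 3). Regulators were 2 in DESeq2, 1 with the block and 0 to 1 with a library left out, and receptors 1 with the block and 0 to 1 with a library left out. The block pairs plates of the same number, but the deviations of same-numbered plates correlated at 0.456, 0.0302 and 0.482, and baseline replicate 2 correlated best with complement replicate 3, so a shared number is all that is known.

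Components above 2 times background were 5 with each baseline library left out, 2 with distant-tissue genes and 3 at a threshold ratio of 5. Components whose groups do not overlap were 5 (17.1% of all tested genes), 3 by library total (C6, C8A, CFB; 14.3%), 4 after subtraction of the expected background (C6, C3, C8A, CFB; 17.9%) and 5 to 6 with a library left out (20.6% to 57.0%, the highest without complement replicate 3). The LFC of C2 turned to −0.24 with the covariate and −0.14 without complement replicates 1 and 2. That of CFD turned to −0.00078 with DESeq2's size factors, −0.043 in DESeq2, −0.025 without a filter, −0.42 with the covariate, −0.27 without complement replicates 1 and 2, and lay at −0.24 to 0.36 with a library left out. The other 6 components kept their sign in every fit that gave a value; C5 and C6 were not tested after either subtraction, nor C7 and C8A after the distant-tissue one. Fits that left out complement replicates 1 and 2 or subtracted the distant-tissue density, the ratios between genes, and the counts of groups that do not overlap with a library left out were chosen after seeing the data. C5, C6 and C8A rest on 15 to 84 counts per library, of which the expected background makes up 103%, 90.3% and 65.2%.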
